A study of Mus musculus with 6 samples.

Results

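Genes of the cornified envelope and of the barrier around it were followed in RNA sequencing libraries of the developing mouse palate. The set held every gene whose symbol belonged to the small proline-rich (Sprr), late cornified envelope (Lce), transglutaminase (Tgm), kallikrein (Klk) or LY6/PLAUR domain (Lypd) families. It also held Cnfn, Ivl, Lor, Flg, Krtdap, Sbsn, Evpl, Ppl, Scel, Cdsn, Rptn and Crct1. Of these, 74 were found among the 23420 genes of the count files, and Flg was not among the genes analysed here. The set was selected on the measured difference between mutant and control libraries, so that difference is given for the members as a description, without a p-value.

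The tissue was dissected at E14.5 from C57BL/6 embryos, from the region that will become the anterior hard palate, with 3 libraries of each genotype. The control was Shox2Cre/+;Nkx2.5F/F and kept an intact Shox2 allele beside the Cre allele. The mutant was Shox2Cre/-;Nkx2.5F/F and carried a Shox2 null allele in its place. Shox2 encodes a homeobox factor made in the anterior part of the palatal mesenchyme. Both genotypes had Cre expressed from the Shox2 locus and a homozygous floxed Nkx2-5 gene, so the control libraries, although titled WT, were not wild type. The labels do not state how many embryos went into each library, so the spread between libraries may be technical in part.

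The cornified envelope is the cross-linked protein shell that replaces the cell membrane of keratinocytes late in their differentiation. Plakin scaffolds such as envoplakin and periplakin are laid down first, transglutaminases then join precursors such as loricrin, involucrin and the small proline-rich proteins to them, and kallikrein proteases later cut the junctions between dead cells. Mucosal surfaces of the mouth make a related envelope, and in the embryo the palatal shelves are covered by basal epithelium and a flat outer layer, the periderm.

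Total counts were 81950407 to 134813429 in the control libraries and 52668242 to 53331397 in the mutant libraries. Shox2 was present at 68.2 to 88.2 CPM (counts scaled to a common library size, here with TMM factors) in the controls and at 3.13 to 5.3 CPM in the mutants (edgeR quasi-likelihood test, log2 fold change -4.24, SE 0.21, adjusted p = 0.000137). As a check of the labelled tissue, 10 palatal mesenchyme markers were summed, and the sums ran from 7310 to 12500 CPM in controls and from 10300 to 11400 CPM in mutants. The largest parts of the sums were the collagen genes Col1a1 and Col3a1, with control means of 4440 and 3220 CPM. Of the 10 genes, 1 was called higher and 3 lower, so similar sums do not mean that the mesenchyme was unchanged. Epithelial markers differed: 16 general epithelial markers summed to 1120 to 1880 CPM in controls and to 5760 to 6500 CPM in mutants, and each of the 16 was called higher. One library stood apart in its counts. Among counts of 5 to 50, even numbers made up 99.7% in mutant replicate 1 and 63.6% to 73% in the other libraries, and the reason is not stated in the labels or file headers. Xist was found at 232 to 843 CPM in controls and at most 0.333 CPM in mutants, and the Y-linked gene Ddx3y was present in all libraries, so that embryonic sex and genotype cannot be told apart. With Xist and Ddx3y (14.3 to 85.7 CPM) together in every control, each control library appears to mix tissue of male and female embryos.

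The members ranged from genes without a count to genes far higher in the mutant libraries. Of the 74 members, 21 had no count in any library, another 21 were under the filter on low counts, and 32 were tested with edgeR over all 16604 genes. At an adjusted p of 0.05, 25 of these were called higher and 1 lower, and 6 were not called. Over all genes tested, 24.1% were called higher and 21.7% lower, and nothing is read from the members' count because the same contrast had chosen them. In 27 of the 32, every mutant library lay above every control library, against 29.7% of all genes tested. Some of the 27, such as Cnfn, Sprr1b, Klk5, Klk7 and Klk12, passed the filter only through the mutant libraries. For them the separation was set by the filter. The median log2 fold change was 3.48 over the tested members (range -1.84 to 8.07) and 0 over all genes. These are levels in bulk tissue, in which more cells of a type and more RNA per cell cannot be told apart.

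The members also varied widely among the mutant libraries. Mutant replicate 1 was the lowest of the mutant libraries for 27 of 32 tested members and mutant replicate 3 the highest for 27, against 43.7% and 34.5% of all genes. The level in mutant replicate 3 was at least 2 times that in replicate 1 for 20 members, and at least 5 times for 12. Over all genes these shares were 5.64% and 1.26%. The summed epithelial markers did not follow this pattern, at 6060, 5760 and 6500 CPM in mutant replicates 1, 2 and 3.

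**Figure D1:**
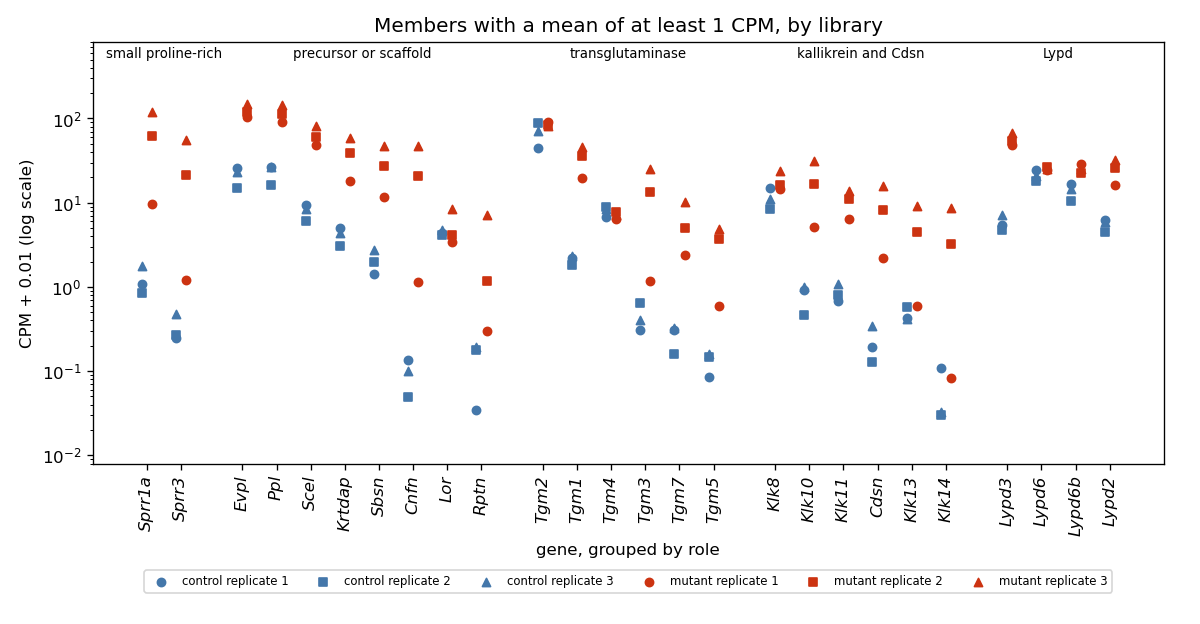
CPM plus 0.01 on a log scale (y axis) for each member with a mean of at least 1 CPM (x axis, grouped by role), with 1 point per library. Evpl, Ppl, Scel and Lypd3 have mutant points close together and above the controls, whereas Cnfn and Sprr3 have mutant replicate 1 far below replicate 3 (41.3-fold and 46-fold), and Lor, Tgm2 and Tgm4 have overlapping groups.

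Of the 8 tested precursors and scaffolds, the plakins and sciellin differed least among the mutant libraries. Evpl encodes envoplakin, a plakin that anchors the forming envelope to desmosomes and keratin filaments. It was measured at 25.5, 15 and 23.4 CPM in control replicates 1, 2 and 3 and at 103, 119 and 148 CPM in the mutant replicates in the same order. All mutant libraries were above all controls, with means of 21.3 ± 5.55 and 123 ± 23 CPM (SD, n = 3) and a log2 fold change of 2.53 (SE 0.22). Its partner plakin periplakin, Ppl, was at 26.2, 16 and 26.3 CPM in controls and at 91.1, 114 and 144 CPM in mutants, a log2 fold change of 2.35 (SE 0.24). Scel encodes sciellin, a precursor that is bound into the envelope. It was at 9.44, 6.07 and 8.49 CPM in controls and at 48, 60.6 and 81.2 CPM in mutants, without overlap (log2 fold change 2.98, SE 0.24). Between mutant replicates 1 and 3 these genes differed 1.44-fold, 1.58-fold and 1.69-fold.

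Secreted and late precursors varied more. Krtdap encodes a small secreted peptide of differentiating keratinocytes. It was at 4.95, 3.05 and 4.34 CPM in controls and at 18, 38.8 and 57.9 CPM in mutants (log2 fold change 3.22, SE 0.43). Sbsn encodes suprabasin, a secreted protein of suprabasal cells. It was at 1.4, 1.99 and 2.72 CPM in controls and at 11.6, 27.4 and 46.6 CPM in mutants (log2 fold change 3.8, SE 0.53). For both genes the groups did not overlap, and mutant replicate 3 exceeded replicate 1 by 3.21-fold for Krtdap and 4.03-fold for Sbsn.

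Cornifelin and repetin had the widest spread of the precursors. Cnfn encodes cornifelin, a minor envelope component. It was close to the limit of counting in controls, at 0.124, 0.0396 and 0.0905 CPM, where 3 counts correspond to 0.0226 to 0.0371 CPM. In the mutants it was at 1.13, 20.5 and 46.5 CPM, so that the mean of 22.7 CPM had an SD of 22.8 (n = 3). Its log2 fold change of 8.07 (SE 1.42) was the largest among the tested members, and it was 6.99 without mutant replicate 3. Rptn encodes repetin, a filament-binding protein of the fused S100 type. It was at 0.0247, 0.168 and 0.181 CPM in controls and at 0.291, 1.15 and 7.22 CPM in mutants (log2 fold change 4.46, SE 1.23). Without mutant replicate 3 that value was 2.47 and no longer called, and the call was also lost without control replicate 1 (4.02), 2 (4.69) or 3 (4.82).

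The best-known structural proteins of the epidermal envelope did not follow the other precursors. Lor encodes loricrin, the main bulk protein of the envelope of the skin. It was at 4.35, 4.1 and 4.68 CPM in controls and at 3.38, 4.07 and 8.36 CPM in mutants, with overlapping groups and a log2 fold change of 0.27 (SE 0.34; -0.23 without mutant replicate 3). Ivl encodes involucrin, an early transglutaminase substrate. Its counts were 1, 4 and 4 in controls and 0, 0 and 4 in mutants, too few for a test.

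The small proline-rich genes were represented by 3 of 15 members. These proteins are short, proline-rich cross-bridges between other envelope components. Sprr1a was at 1.08, 0.832 and 1.76 CPM in controls and at 9.56, 61.9 and 119 CPM in mutants. The groups did not overlap, and the log2 fold change was 5.68 (SE 0.91), or 4.86 without mutant replicate 3. Sprr3, an abundant cross-bridge protein of the oral and esophageal lining, was at 0.235, 0.258 and 0.468 CPM in controls and at 1.2, 21.2 and 55.2 CPM in mutants (log2 fold change 6.29, SE 1.28; 5.1 without mutant replicate 3). Mutant replicate 1 was thus nearer to the controls than to mutant replicate 3. Sprr1b had 1 count in all controls together and 10, 12 and 77 counts in the mutants, and no fold is given for it.

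The other 12 small proline-rich members were near absent from both groups. Of these, 8 had no count in any library, among them Sprr4, Sprr2b and Sprr2e, and the remaining 4 reached at most 6 counts in a library. Sprr2a1 and Sprr2a2 are near-identical copies that share 96.3% and 96.5% of their 50-base stretches with other transcripts, so a 0 for them is uncertain if only uniquely placed reads were counted. The late cornified envelope genes, which encode precursors added late in skin, gave the same picture. Of 21 members in this role 13 had no count in any library and none passed the filter. The highest was Crct1, a cysteine-rich relative of the late envelope genes, with 0, 4 and 14 counts in controls and 4, 37 and 90 counts in mutants. Lce3a had 36 counts and Lce3f 27 counts in mutant replicate 3, and Lce3a had at most 3 and Lce3f at most 2 counts in the other libraries. Both share sequence with other Lce3 genes (19% and 48% of their 50-base stretches).

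Promoter sequences of the genes described so far were read to place these differences beside the DNA next to each start. The RefSeq table (GRCm38.p6) held the 250 bases before the start for 65 of the 74 members. The windows were searched for TGANTCA, a pattern that reads the same on both strands and is called an AP-1 match here. It is looser than the AP-1 element, TGAGTCA or TGACTCA, because any centre base was allowed. The other patterns were AACNGGTT (Grainyhead-like factors, both strands), GGGTGTGG (Krüppel-like factors, both strands) and TATAAA (the TATA box, on the strand of the gene). Below, the nearest 150 bases before the start are shown 5′ to 3′ on the strand of the gene, with TGANTCA and TATAAA matches in capitals, for called precursors that held an AP-1 match, for Sprr3 as a strongly differing gene without one, and for Lor as a gene whose groups overlapped.
Sprr1a: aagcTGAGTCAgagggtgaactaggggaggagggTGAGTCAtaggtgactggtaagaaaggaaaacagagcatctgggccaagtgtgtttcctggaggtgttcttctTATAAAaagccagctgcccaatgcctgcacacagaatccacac
Sprr1b: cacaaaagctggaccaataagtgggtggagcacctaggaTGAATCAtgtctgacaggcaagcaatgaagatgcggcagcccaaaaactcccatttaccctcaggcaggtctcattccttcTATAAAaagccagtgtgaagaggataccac
Sprr3: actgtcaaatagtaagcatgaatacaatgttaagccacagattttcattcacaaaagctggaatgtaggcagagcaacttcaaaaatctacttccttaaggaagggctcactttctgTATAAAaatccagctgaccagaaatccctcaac
Krtdap: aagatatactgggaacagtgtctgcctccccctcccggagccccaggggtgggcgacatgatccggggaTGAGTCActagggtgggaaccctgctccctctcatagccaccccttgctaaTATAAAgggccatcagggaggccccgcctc
Sbsn: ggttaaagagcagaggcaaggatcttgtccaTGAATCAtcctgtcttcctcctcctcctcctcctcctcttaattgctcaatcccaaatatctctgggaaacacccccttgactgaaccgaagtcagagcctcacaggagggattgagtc
Scel: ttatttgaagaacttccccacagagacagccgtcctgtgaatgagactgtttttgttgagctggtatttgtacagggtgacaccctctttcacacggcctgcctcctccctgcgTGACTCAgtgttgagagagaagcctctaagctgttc
Rptn: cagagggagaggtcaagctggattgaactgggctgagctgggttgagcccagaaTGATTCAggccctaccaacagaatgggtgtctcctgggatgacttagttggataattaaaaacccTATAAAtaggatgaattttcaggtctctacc
Lor: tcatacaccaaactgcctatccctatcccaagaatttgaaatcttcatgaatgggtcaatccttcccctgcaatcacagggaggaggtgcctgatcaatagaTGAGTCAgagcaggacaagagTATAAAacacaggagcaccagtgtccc
The stretches lie at chr3:92485882-92486031 (minus strand), chr3:92438780-92438929 (minus strand), chr3:92458721-92458870 (minus strand), chr7:30787755-30787904 (plus strand), chr7:30751321-30751470 (plus strand), chr14:103513191-103513340 (plus strand), chr3:93393549-93393698 (plus strand) and chr3:92083143-92083292 (minus strand).

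An AP-1 match was present before 16 of the 65 members (24.6%) and before 7.82% of the 27025 genes in the table. A TATA match was present before 19 of the 65 (29.2%), compared with 8.94% of genes. The other motifs were as rare in the members as elsewhere, with 2 of 65 each (3.08%), compared with 2% of genes for the Grainyhead-like letters and 3.68% for the Krüppel-like letters. Members include near-copies of each other, so these are not independent observations. Of the 21 members called higher that had a window, 6 held an AP-1 match, namely Sprr1a, Sprr1b, Krtdap, Sbsn, Scel and Rptn. A TATA match was held by 6 of the 21, namely Krtdap, Rptn, Sprr1a, Sprr1b, Sprr3 and Tgm3. The matches of Sprr1b and Sbsn read TGAATCA and that of Rptn TGATTCA, so they differ from the AP-1 element in the centre base. The printed stretch of Lor holds both an AP-1 and a TATA match, although Lor had overlapping groups. Those of Sprr1a, Sprr1b, Krtdap and Rptn hold both as well. A match is a description of the letters, not a site or a cause.

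Of the 6 tested transglutaminases, which form the bonds between envelope proteins, 4 were called higher. Tgm1 encodes the membrane-bound enzyme that cross-links the envelope. It was at 2.18, 1.82 and 2.32 CPM in controls and at 19.4, 36 and 46.1 CPM in mutants, with no overlap, means of 2.11 ± 0.257 and 33.9 ± 13.5 CPM (SD, n = 3) and a log2 fold change of 4 (SE 0.33). Tgm3, whose soluble enzyme joins small proline-rich proteins before they reach the membrane, was at 0.297, 0.634 and 0.392 CPM in controls and at 1.16, 13.3 and 24.9 CPM in mutants (log2 fold change 4.88, SE 1.02; 4.03 without mutant replicate 3). The spread of Tgm3 between mutant replicates 1 and 3 was 21.4-fold, and that of Tgm1 2.37-fold.

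Tgm5 and Tgm7, neighbours on chromosome 2, were also higher. Tgm5, an epidermal cross-linking enzyme, was at 0.0742, 0.139 and 0.151 CPM in controls and at 0.581, 3.7 and 4.9 CPM in mutants (log2 fold change 4.61, SE 0.81). Tgm7 was at 0.297, 0.149 and 0.317 CPM in controls and at 2.4, 5.05 and 10.2 CPM in mutants (log2 fold change 4.52, SE 0.61; 3.86 without mutant replicate 3). For both genes all mutant libraries were above all controls.

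The broadly expressed Tgm2 and the prostate enzyme gene Tgm4 had overlapping groups. Tgm2 encodes tissue transglutaminase, which is also made by mesenchyme and endothelium. It was at 44.4, 87.9 and 71.2 CPM in controls and at 89.7, 83.8 and 81.4 CPM in mutants (log2 fold change 0.32, SE 0.22). Tgm4 was at 6.74, 8.91 and 8.32 CPM in controls and at 6.43, 7.66 and 7.17 CPM in mutants (log2 fold change -0.17, SE 0.17). Exons of other genes overlap 21.8% of Tgm2 and 25% of Tgm4, and without a stated strand setting their reads cannot be told apart. Tgm6, the neuronal member, had at most 5 counts in a library.

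The kallikreins are secreted serine proteases that loosen the surface layers, and Cdsn encodes corneodesmosin, the adhesive junction protein that they cut. Cdsn was at 0.186, 0.119 and 0.332 CPM in controls and at 2.22, 8.17 and 15.8 CPM in mutants, all above the controls (log2 fold change 5.32, SE 0.79; 4.58 without mutant replicate 3). Klk10 was at 0.915, 0.456 and 0.996 CPM in controls and at 5.09, 16.8 and 30.9 CPM in mutants (log2 fold change 4.47, SE 0.68; 3.79 without mutant replicate 3). Klk11 was at 0.668, 0.783 and 1.06 CPM in controls and at 6.32, 11.2 and 13.8 CPM in mutants (log2 fold change 3.62, SE 0.35). The 3 genes shared the order of the mutant libraries, with replicate 1 lowest and replicate 3 highest.

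Klk13 and Klk14 came near the control level in mutant replicate 1. Klk13 was at 0.421, 0.565 and 0.407 CPM in controls and at 0.581, 4.48 and 9.01 CPM in mutants (log2 fold change 3.33, SE 0.85). Its call was lost without mutant replicate 3 (2.44) or control replicate 3 (3.24). Klk14 did not pass the filter, because its counts of 8, 2 and 3 in controls and 4, 175 and 460 in mutants reached the required minimum in too few libraries. For these genes the difference between genotypes was carried by mutant replicates 2 and 3.

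Klk5 and Klk7 encode the proteases best known for cutting corneodesmosin. Klk5 had 0, 4 and 2 counts in controls and 14, 59 and 158 counts in mutants (log2 fold change 6.12, SE 1.16; 7.06 without control replicate 2 and 5.05 without mutant replicate 3), and Klk7 had 3, 3 and 6 counts in controls and 10, 22 and 68 in mutants (3.98, SE 0.83; 2.91 without mutant replicate 3). Klk12 had 2 counts in all controls together and 22, 74 and 94 counts in the mutants. Klk9 had 19, 7 and 15 counts in controls and 32, 13 and 45 in mutants (log2 fold change 2.01, SE 0.65). In CPM the groups did not overlap for these 4 genes. Klk5, Klk7 and Klk12 were under the filter's minimum in every control and passed only through the mutant libraries. Their separation was therefore set by the filter. Klk9 was separated narrowly, with 0.235 CPM in control replicate 1 and 0.24 CPM in mutant replicate 2. The call of Klk9 was lost without control replicate 2 (1.68) or 3 (1.87) or mutant replicate 1 (1.97) or 3 (1.58).

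Klk8 encodes neuropsin, a protease of epidermis and brain, and was the only kallikrein above 1 CPM in every control library. It was at 15.1, 8.37 and 11.2 CPM in controls and at 14.6, 16 and 23.5 CPM in mutants, with overlapping groups (log2 fold change 0.64, SE 0.26). It was not called, but was called with DESeq2 and without control replicate 1 (0.87). Exons of 2310002F09Rik on the other strand overlap 24.8% of Klk8 and 22.6% of Klk14. Klk4, known from enamel formation, was at 0.099, 0.238 and 0.249 CPM in controls and at 1.45, 0.37 and 0.41 CPM in mutants, so that mutant replicate 1 was the highest library (log2 fold change 1.9, SE 0.67, not called; 0.97 without mutant replicate 1). Klk1, Klk6 and Klk15 had at most 10 counts in any library.

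The Lypd genes encode small proteins of the LY6/uPAR type, most of them tethered to the membrane. Lypd3, also called C4.4A, is a surface protein of suprabasal squamous cells. It was at 5.43, 4.75 and 7.22 CPM in controls and at 48.7, 54.1 and 67.3 CPM in mutants, with means of 5.8 ± 1.28 and 56.7 ± 9.54 CPM (SD, n = 3) and a log2 fold change of 3.29 (SE 0.2). Lypd2 was at 6.22, 4.5 and 5.91 CPM in controls and at 16.3, 25.7 and 32.4 CPM in mutants (log2 fold change 2.16, SE 0.27). Both genes had non-overlapping groups, and Lypd3 differed only 1.38-fold between mutant replicates 1 and 3.

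Lypd6 and Lypd6b, which encode modulators of nicotinic receptors, were already well expressed in controls. Lypd6b was at 16.6, 10.4 and 14.7 CPM in controls and at 28.7, 22.8 and 25 CPM in mutants (log2 fold change 0.88, SE 0.19). Lypd6 was at 24.2, 18.2 and 21 CPM in controls and at 24.4, 26.8 and 25.1 CPM in mutants, a log2 fold change of 0.26 (SE 0.12) that was not called although the groups did not overlap. Unlike most tested members, Lypd6b was highest in mutant replicate 1.

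Lypd1, which encodes a neuronal receptor modulator, was the only member called lower. It was at 0.94, 0.773 and 1.01 CPM in controls and at 0.145, 0.111 and 0.503 CPM in mutants (log2 fold change -1.84, SE 0.58). The call was lost without control replicate 1 (-1.83), 2 (-1.94) or 3 (-1.76) or mutant replicate 1 (-1.56) or 2 (-1.49), and the value was -2.81 without mutant replicate 3. Exons of Gpr39 overlap 17.1% of Lypd1. Lypd5 had 0, 4 and 19 counts in controls and 6, 50 and 136 in mutants and was under the filter. Lypd4 and Lypd8 had at most 7 counts in a library.

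**Figure D2:**
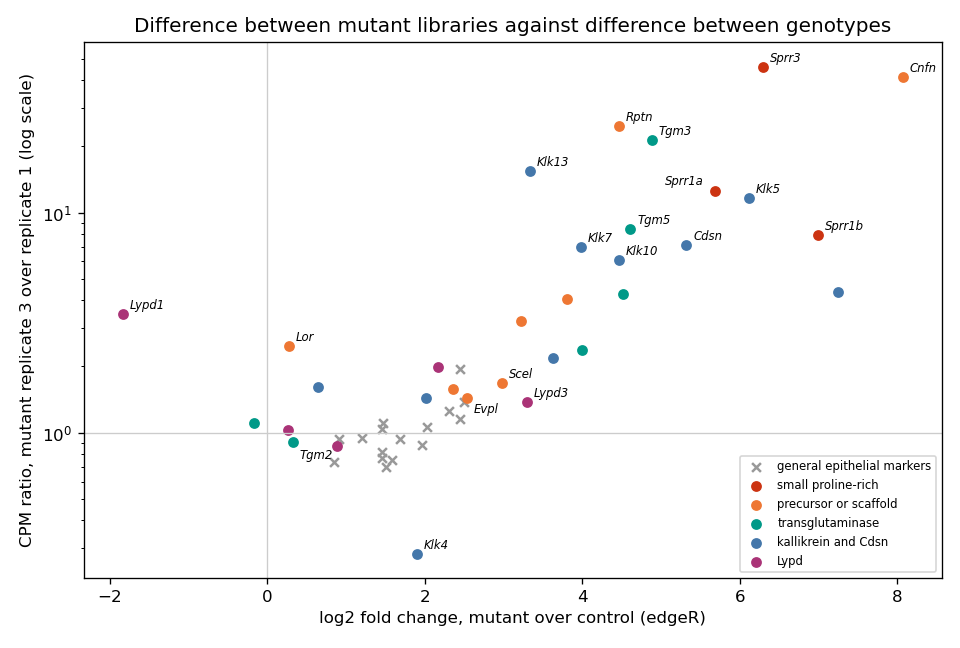
Ratio of CPM in mutant replicate 3 to replicate 1 on a log scale (y axis) against the log2 fold change between genotypes (x axis) for each tested member, coloured by role, with crosses for the general epithelial markers. Both axes use mutant replicate 3; Sprr3 (46), Cnfn (41.3) and Rptn (24.8) lie at the top, and Evpl (1.44), Ppl (1.58), Scel (1.69) and Lypd3 (1.38) lie near 1.

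By role, the median ratio of mutant replicate 3 to replicate 1 was 12.5 for the small proline-rich genes, 5.23 for kallikreins with Cdsn, 3.32 for transglutaminases, 2.84 for precursors and scaffolds and 1.38 for the Lypd genes, and 1.02 over all genes tested. The same libraries had near-equal totals. Lists outside the set showed such differences too. The ratio was at least 2 for 12 of 14 tested suprabasal and periderm keratin genes (median 4.14), for 7 of 14 desquamation proteases and inhibitors (median 2.34) and for 5 of 15 other genes of the epidermal differentiation complex (median 1.7). It was at least 2 for 1 of 13 other envelope substrates and junction scaffolds (median 1.29) and for none of the 16 general epithelial markers (median 0.943). The ratio was also at least 2 for 3 of 8 ciliated and airway markers (median 1.2) and 3 of 7 salivary gland markers (median 1.38). Of single genes named here after their values were seen, S100a9 had a ratio of 76.1, above every tested member, and S100a8 23.3. Pnpla1 had 40, from 2 counts in mutant replicate 1. Serpinb3a had a ratio of 31.6, Spink5 10.4 and Krt76 16.9. The ciliated-cell gene Sntn had a ratio of 4.6, the airway secretory gene Bpifa1 5.87 and the suprabasal keratin gene Krt1 28.8, whereas the ciliary regulator gene Foxj1 had 0.948. Mutant replicate 1 is also the library with almost only even counts, and whether the 2 facts are linked was not tested. Without it, 27 members were called higher, 24 of them among the original 25, and the median log2 fold change of tested members was 4.17. Without mutant replicate 3, 22 were called, all among the original 25, and the median was 2.91.

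Levels compared between genes after division by exonic length changed the order of the members. Per kilobase, Sprr1a had the highest mean in mutants (78.8 CPM per kb), followed by Krtdap (56.3), Lypd2 (36.5), Lypd3 (34.4), Cnfn (31.6), Scel (25.3), Sprr3 (21.2), Evpl (19.3) and Tgm2 (18.4). In controls the same length-scaled levels were 1.51 for Sprr1a, 6.05 for Krtdap, 8.16 for Lypd2, 3.52 for Lypd3, 0.118 for Cnfn, 3.2 for Scel, 0.262 for Sprr3, 3.34 for Evpl and 14.7 for Tgm2. Tgm2 thus led these 9 genes in controls and came last among them in mutants. The mutant SDs of Sprr1a and Cnfn (54.8 and 22.8 CPM) were close to their means, so the order of neighbours among the mutant levels is not separated by the spread between libraries.

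Most members lie in 2 gene clusters, and within each the levels differed by position. The epidermal differentiation complex held 39 members between positions 92080271 and 93399442 of chromosome 3 (GRCm38, GENCODE M21). Of these, 5 were tested and 4 called higher, namely Sprr1a, Sprr1b, Sprr3 and Rptn, and Lor was not called. The Sprr2 genes, between Lor and Sprr1b, and the Lce genes, between Ivl and Rptn, were at or near 0 in both groups. In the kallikrein cluster on chromosome 7, 13 genes span 539 kb in the order Klk14, Klk13, Klk12, Klk11, Klk10, Klk9, Klk8, Klk7, Klk6, Klk5, Klk4, Klk15 and Klk1. Klk5, Klk7 and the run from Klk9 to Klk13 were called higher, Klk14 was untested, Klk8 was present in both groups, and Klk6, Klk15 and Klk1 were near 0 throughout.

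**Figure D3:**
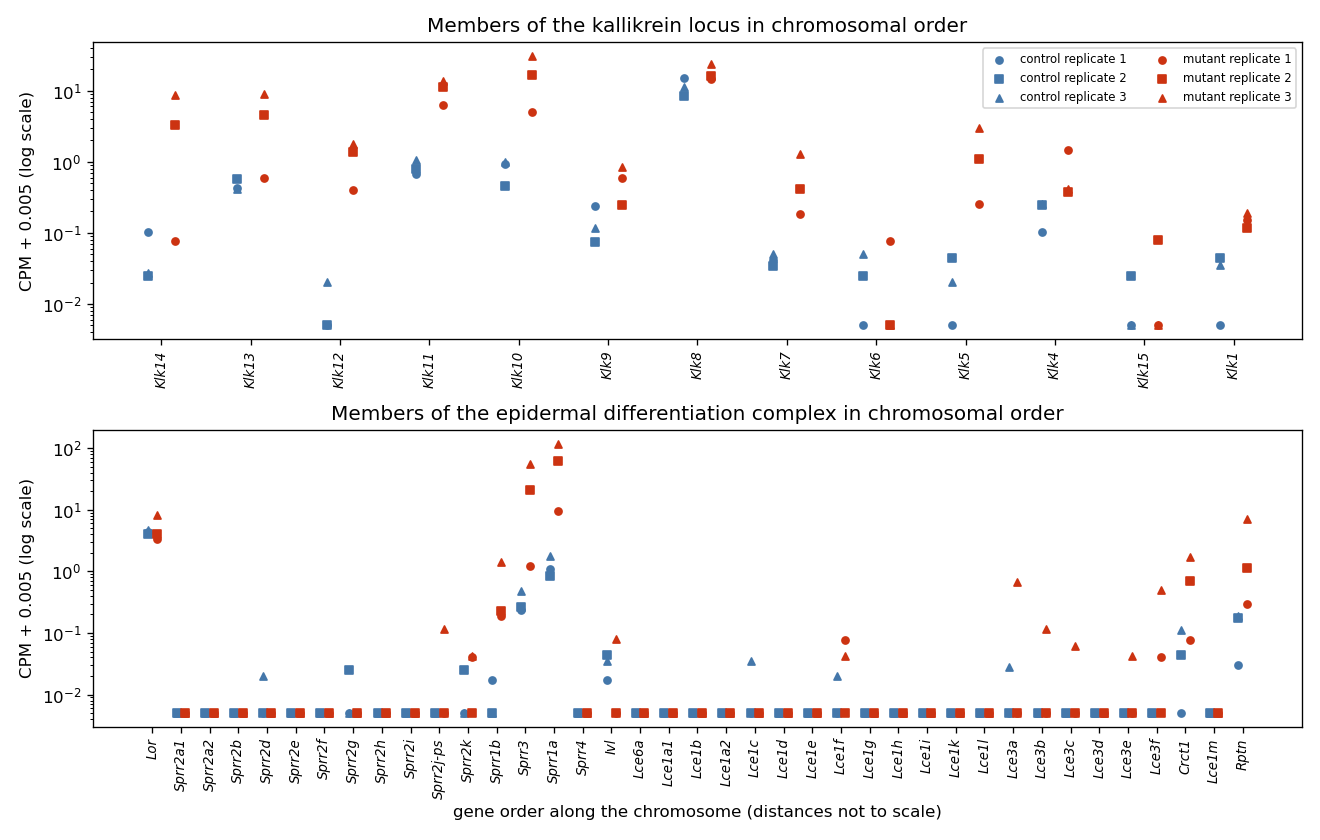
CPM plus 0.005 on a log scale (y axis) for members of the epidermal differentiation complex and of the kallikrein locus in chromosomal order (x axis, distances not to scale), with 1 point per library. Sprr1b, Sprr3 and Sprr1a lie together between Sprr2 genes and Sprr4 at or near 0, and Klk8 has overlapping groups (8.37 to 15.1 CPM in controls and 14.6 to 23.5 CPM in mutants) beside Klk9 to Klk14.

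Because all epithelial markers were higher in the mutant libraries, each tested member was also expressed per 1000 CPM of the summed general epithelial markers. On this scale 17 of 32 members had every mutant library above every control, 8 overlapped and 7 had every mutant library below. The share over all genes tested was not computed on this scale, so nothing is read from these counts. Cnfn, Sprr1b, Klk5, Klk7 and Klk12 are among the 17 and had passed the filter only through the mutant libraries. Evpl was at 12.6 to 13.6 in controls and 17 to 22.8 in mutants, a ratio of means of 1.52. Ppl was at 14 to 14.3 in controls and 15 to 22.1 in mutants, a ratio of 1.34. For both plakins every mutant library was above every control on this scale, by less than in plain CPM. The scale depends on the markers chosen. Its largest parts were Krt5, Krt15 and Krt14, with mutant means of 1720, 1370 and 914 CPM. The markers also rose unevenly, from 1.79-fold for Epcam to 5.64-fold for Krt15. Which members lie above or below the controls could therefore differ with another choice of markers, which was not tested.

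Ratios were larger for other members. The ratio of means was 2.05 for Scel, 2.51 for Lypd3, 4.09 for Tgm1, 11 for Cdsn, 13.5 for Sprr1a and 72.4 for Cnfn, all with groups that did not overlap. Sprr3 had a ratio of 20.3 but overlapped, because mutant replicate 1 was at 0.198 and the controls ran from 0.125 to 0.252. The others that overlapped were Klk4, Klk9, Klk13, Lypd2, Rptn, Tgm3 and Tgm5. The 7 members below the controls were Lor, Tgm2, Tgm4, Klk8, Lypd1, Lypd6 and Lypd6b. The summed markers were 3.78-fold higher in mutants, so a gene with equal CPM in both groups falls below the controls on this scale. In plain CPM only Lypd1 of the 7 was called lower. Lypd6b was called higher and the others were not called. Their place on this scale is therefore not read as a fall within the epithelium. Lor had a ratio of 0.299 (2.32 to 3.67 in controls and 0.558 to 1.28 in mutants), Lypd6 had 0.309, Klk8 0.407 and Lypd6b 0.48.

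**Figure D4:**
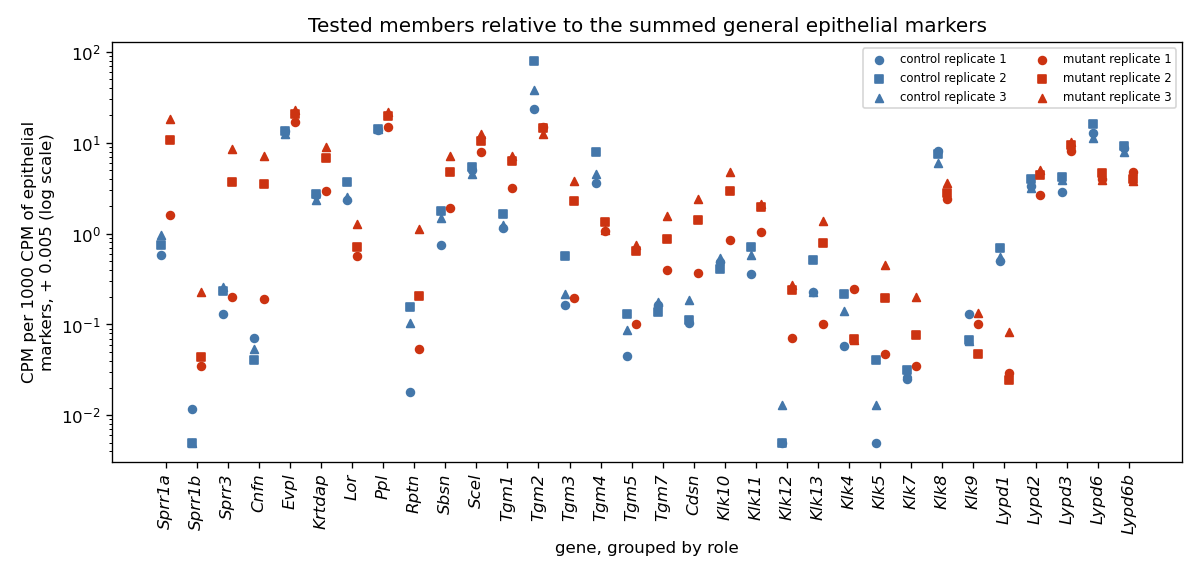
CPM of each tested member per 1000 CPM of the summed general epithelial markers, plus 0.005, on a log scale (y axis) by gene (x axis, grouped by role), with 1 point per library. Evpl and Ppl have ratios of means of 1.52 and 1.34, Cnfn and Sprr1a are far higher in mutants (72.4 and 13.5), and Lor, Klk8, Lypd6 and Lypd6b lie below the controls.

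Other genes of the barrier program, which were not members, were tested over all genes with edgeR, and the Benjamini-Hochberg adjusted p is given. Of 106 tested genes in 7 lists, 72 were called higher and 4 lower, while 24.1% and 21.7% of all genes tested were. The lists were chosen with earlier results of these data known, so their counts are a description and not independent support. Some of the 72, such as Crnn, Krt76 and Sdr9c7, passed the filter only through the mutant libraries, and their rise was set by the filter. Of 19 terminal differentiation factors 12 rose and none fell (median log2 fold change 1.16). Among the most abundant, Ehf, an epithelial transcription factor gene, rose by 1.78 (SE 0.18, adjusted p = 0.000487). Klf4, a regulator of barrier formation in skin, had a log2 fold change of -0.03 (SE 0.28, adjusted p = 0.936) and Maf of 0.05 (SE 0.24, adjusted p = 0.877), so neither passed the test. Ovol1 and Grhl3, named here after their values were seen, rose by 2.84 (SE 0.3, adjusted p = 0.000557) and 1.8 (SE 0.33, adjusted p = 0.00416).

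Of 14 suprabasal and periderm keratin genes 11 rose (median 4.14). Krt13, the keratin of oral and esophageal suprabasal cells, rose, with means of 5.37 ± 2.52 CPM in controls and 957 ± 623 CPM in mutants (SD, n = 3; log2 fold change 7.47, SE 0.74, edgeR adjusted p = 0.000447). Krt6a rose by 4.12 (SE 0.32, adjusted p = 0.000243) and Krt17 by 1.21 (SE 0.16, adjusted p = 0.00132), both keratins of periderm and activated epithelium. Krt1, the epidermal suprabasal keratin, rose by 4.23 (SE 1.06, adjusted p = 0.015), with 12.7, 226 and 367 CPM in the mutants and 5.44 to 13.8 CPM in controls. That call was lost without control replicate 2 (3.91), and the value was 3.47 without mutant replicate 3. Its partner Krt10, named after its values were seen, did not pass the test (log2 fold change 0.15, SE 0.48, adjusted p = 0.819), and its direction turned without mutant replicate 3 (-0.57).

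Of 13 envelope substrates and junction scaffolds 11 rose (median 2.21), among them Dsp, the desmosomal plakin desmoplakin (2.21, SE 0.25, adjusted p = 0.000628), and Jup, plakoglobin (1.85, SE 0.14, adjusted p = 0.000236). Anxa1 rose by 1.38 (SE 0.15, adjusted p = 0.000546) and Plec, plectin, by 0.93 (SE 0.11, adjusted p = 0.000932). Of 14 tested desquamation proteases and inhibitors 12 rose (median 2.19). The membrane protease gene St14 rose by 1.46 (SE 0.21, adjusted p = 0.00152), and genes of its inhibitors rose too, Spint1 by 1.53 (SE 0.16, adjusted p = 0.000494) and Spint2 by 1.24 (SE 0.18, adjusted p = 0.00161). Serpinb5, a serpin gene, rose by 1.95 (SE 0.23, adjusted p = 0.000739). Spink5, which encodes the kallikrein inhibitor LEKTI and was named after its values were seen, rose by 5.92 (SE 0.88, adjusted p = 0.00189; 5.16 without mutant replicate 3).

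Barrier lipid genes were divided. Of 18 tested, 10 rose and 1 fell (median 0.99). Ugcg, which encodes glucosylceramide synthase, fell by 0.45 (SE 0.08, adjusted p = 0.00414), while Elovl1, a fatty acid elongase gene, rose by 0.47 (SE 0.13, adjusted p = 0.0213), a call lost without mutant replicate 2 (0.49) or 3 (0.4). Slc27a4 and Smpd1 did not pass the test (0.11 and 0.22, SE 0.07 and 0.1, adjusted p = 0.244 and 0.0997). Cyp4f39, an omega-hydroxylase gene of ceramide synthesis named after its values were seen, rose by 5.51 (SE 0.61, adjusted p = 0.000634).

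Of 15 tested other genes of the epidermal differentiation complex 7 rose and 2 fell (median 1.36). S100a16 rose by 1.36 (SE 0.23, adjusted p = 0.00306), S100a10 fell by 0.6 (SE 0.12, adjusted p = 0.00665; not called with the Ddx3y level as a covariate, -0.45) and S100a4 fell by 1.37 (SE 0.42, adjusted p = 0.0334). The call of S100a4 was lost without control replicate 2 (-1.23) or 3 (-1.1) or mutant replicate 1 (-1.11) or 2 (-1.41). These genes encode small proteins of the S100 family that are also made outside epithelium. S100a11 and S100a6 did not pass the test (0.25 and 0.69, SE 0.14 and 0.34, adjusted p = 0.186 and 0.133). With at least 1 CPM in 3 libraries only 4 genes of this list rose, and without the first library of both groups 11 did. Leaving out 1 library at a time gave 5 to 10. Of 13 other Ly6 and uPAR genes 9 rose and 1 fell (median 1.6). Ly6d, a surface marker gene of stratified epithelium, rose by 4.16 (SE 0.34, adjusted p = 0.000274), Ly6e by 1.6 (SE 0.14, adjusted p = 0.000322) and Lynx1 by 1.13 (SE 0.14, adjusted p = 0.000834). Cd59a, the gene of a complement inhibitor, fell by 0.63 (SE 0.2, adjusted p = 0.0356), a call lost without control replicate 1 (-0.63) or 3 (-0.55) or mutant replicate 2 (-0.72), and Ly6h did not pass the test (0.25, SE 0.09, adjusted p = 0.0629).

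**Figure D5:**
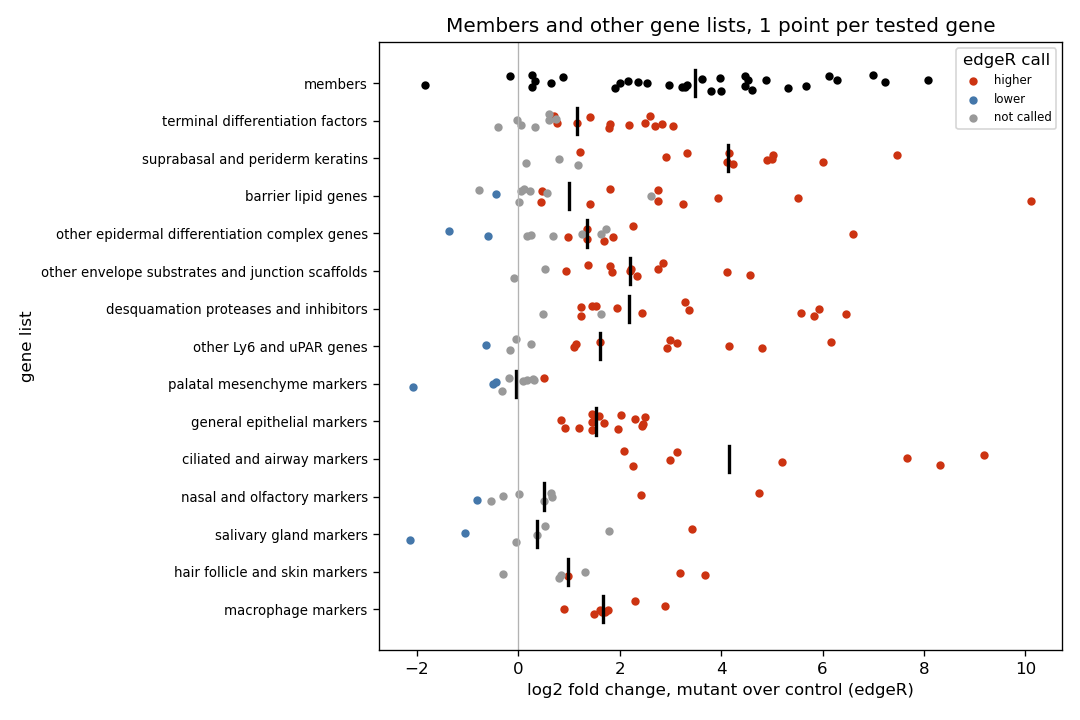
Log2 fold change, mutant over control (x axis), of every tested gene in the member set and in the other gene lists (y axis, 1 line per list), with 1 point per gene and the edgeR call in colour for the lists. The keratin list has a median of 4.14, and general epithelial markers have all 16 points above 0 (median 1.54).

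Markers of some other cell types were higher in the mutant libraries beside the members. Of the ciliated and airway markers 8 of 8 tested rose, and their sum ran from 36.7 to 140 CPM in controls and from 482 to 568 CPM in mutants, while Scgb1a1 had no counts. Among the 8, Sntn, Sftpc and Nkx2-1 passed the filter only through the mutant libraries, so their rise was set by the filter. Of the hair follicle and skin markers 3 of 7 tested rose (sum 20.2 to 25.1 CPM in controls and 39 to 48.4 CPM in mutants). The same limit of the filter holds for Krt77, which is among the 3. Macrophage markers rose in 9 of 9 (sum 77 to 133 CPM and 337 to 430 CPM). Other lists had few calls, to be read beside the 24.1% called higher and 21.7% called lower over all genes. The salivary gland markers gave 1 higher and 2 lower of 7 tested (sum 24.6 to 28.5 CPM and 18.2 to 29.9 CPM), with Dcpp1 and Prol1 at 0, and the nasal and olfactory markers 2 higher and 1 lower of 9 (sum 185 to 237 CPM and 227 to 268 CPM). Palatal mesenchyme markers gave 1 higher and 3 lower of 10, and the sums of the salivary, nasal and mesenchyme lists overlapped between the groups. The part of these markers in the members' levels was not tested.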

How the data were processed

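Palatal tissue of E14.5 mouse embryos was sequenced in 3 control and 3 mutant libraries. Each deposited file lists, by gene symbol, read counts as whole numbers that the authors left unnormalized as far as the values show. Per the submitters' processing notes, HISAT2, StringTie and the builds mm9 and mm10 were used, with no version or role named. The counter of the reads, any strand setting and the gene models were not given in the sources used here. Many low counts are even, so counts may come in pairs, and precision that rests on counts covers counting error only.

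Counts were analysed with edgeR 4.0.16 in R 4.3.3. After filterByExpr (by group) and TMM scaling, genotypes were compared by the quasi-likelihood F test with no covariate, with a Benjamini-Hochberg threshold of 0.05 over all genes tested. A standard error is the size of the log2 fold change over the square root of its F. CPM use the TMM-scaled library sizes, and a floor of 3 counts stands for absence. The fit was tested on simulated data first. Alternatives were DESeq2 1.42.0, other scalings and filters, each library left out, the replicate number as a block, and the Ddx3y level as a covariate.

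The members and the gene lists were chosen with earlier results of these data known. Members with a mean of at least 1 CPM are given by library, others mostly by counts, and the 4 most abundant tested genes of each list are named, except 1 that is not reported here. Members under 1 CPM that are described singly were chosen after their values were seen, as were list genes said to be so and the list genes that fell. Positions, exon overlaps and shared 50-base stretches come from GENCODE M21 on GRCm38, and promoter sequences from RefSeq.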

Additional observations from a re-analysis of the deposited data

How the results depend on the processing

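Of the 7606 genes, 26 members and 76 pathway genes called, the same counts were 7603, 26 and 76 with RLE size factors, 7357, 27 and 80 with library size only, 8391, 28 and 84 with DESeq2, and 7525, 29 and 78 without a filter. With at least 1 CPM in 3 libraries only 22 members were tested, and 17 of them were called. Leaving out 1 library at a time gave 5780 to 7659 genes, 23 to 27 members and 70 to 85 pathway genes. Without the first library of both groups, 30 members were called, among them all 25 called higher. Scaling by library size alone moved the median of all genes to 0.06.

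The replicate numbers gave no clear pairing of the libraries. Deviations of same-numbered libraries correlated at only 0.08, 0.08 and 0.02. For each mutant library the same-numbered control had the highest correlation of the controls. Control replicate 3, however, correlated better with mutant replicate 2 (0.05) than with its own number. With the replicate block 7022 genes, 26 members and 79 pathway genes were called, and Krt1 lost its call (3.69).

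With the Ddx3y level as a covariate, chosen after seeing the data, 5740 genes, 20 members and 67 pathway genes were called. Of the 26 members called, 19 kept their call and direction, and Klk7, Klk9, Klk13, Lypd1, Rptn, Sprr1b and Sprr3 lost it. Among the named list genes Krt1 (3.54), S100a10 (-0.45), S100a4 (-0.71) and Cd59a (-0.78) lost theirs, and Cd59a also lost it with library size only (-0.56). The cause was not tested. Calls were gained too. Tgm2 was called with this covariate (0.86), and Klk4 with library size only (1.98) or DESeq2 (1.93). Lypd6 was called without control replicate 1 (0.36) or without the first library of both groups (0.39). Smpd1, Ly6h, S100a6 and S100a11 were also called under some alternatives. No called value of a named gene changed sign under these alternatives. Depth limits the Sprr2, Lce and Ivl genes, where a difference of a few counts was not detectable.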
